A study of Mus musculus with 2 samples.

Results

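Krt5, Krt14 and Krt15 are the keratin genes of the basal layer, and they were followed here by symbol, 3 of the 27998 genes in the files and 3 of 51 keratin genes. Their transcripts were measured in single cells of the buccal mucosa, the lining of the cheek. The cells came from 10 female C57BL/6 mice aged 12 weeks, none of them treated or mutant per the labels. They were pooled, sorted for a high surface level of CD104 (β4-integrin, gene Itgb4) and loaded on the 10x Chromium platform. All cells came from 1 suspension, and the 2 libraries made of it are technical replicates. There was thus 1 independent sample, and no difference could be tested for significance. Each value is given for library 1 and then library 2, and their gap measures technical spread only, not the spread between mice.

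The cells were grouped by 3 rules. The first was the sum of Krt4 and Krt13, the keratins of differentiating oral epithelium: under 80 UMIs (unique molecular identifiers, counted transcripts) per 10,000 UMIs of the cell (low bin), 80 to 350 (middle bin), or 350 and above (high bin). The second was division, with cells at 10 or more UMIs per 10,000 of Top2a, Cenpf, Ube2c and Ccnb1 together called cycling and the others resting. Resting thus means only below that limit, and dividing cells low in these genes can be among the resting ones. The third was a Dcn level of at least 15 per 10,000. The libraries kept 6907 and 8563 cells with medians of 7690 and 6709 UMIs, so that 1 UMI in a median cell was worth 1.30 and 1.49 per 10,000. All 8 keratinocyte markers of the list used were found, and the libraries shared 96 barcodes among the kept cells. The low bin held 50.9% and 47.9% of cells, the middle bin 28.0% and 28.1%, and the high bin 21.1% and 24.0%. Median depth rose with the bins, from 6468 and 5390 UMIs to 8221 and 6911 and then 14725 and 11984. Its part in the differences was not tested, but cells reduced to 3000 UMIs were compared where detection was counted.

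Keratin filaments form from pairs of a type II and a type I keratin. In basal cells of stratified epithelia the type II partner is Krt5, and the type I partners are Krt14 and Krt15. The filaments are fastened to the basement membrane at hemidesmosomes and to neighbouring cells at desmosomes. Cells that leave the basal layer of the oral lining exchange these keratins for Krt4 and Krt13. Krt15 is often used as a marker of slowly dividing or stem-like basal cells in hair follicle and oesophagus.

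The genes lie in the mouse keratin clusters, at GRCm38 coordinates, the assembly also called mm10. Krt5 (ENSMUSG00000061527) spans chr15:101707070-101712898, Krt14 (ENSMUSG00000045545) chr11:100203162-100207548 and Krt15 (ENSMUSG00000054146) chr11:100131758-100135928, all on the minus strand. Krt14 and Krt15 are close relatives, so the stretch in which their coding sequences are most alike is shown, with the bases that differ in capitals. It lies in exon 1 of each gene, at chr11:100206982-100207101 for Krt14 and chr11:100135454-100135573 for Krt15. Of its 120 bases, 109 are the same and 11 differ.

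Krt14: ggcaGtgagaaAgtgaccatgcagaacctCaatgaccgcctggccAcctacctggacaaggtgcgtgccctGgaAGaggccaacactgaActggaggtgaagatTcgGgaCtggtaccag
Krt15: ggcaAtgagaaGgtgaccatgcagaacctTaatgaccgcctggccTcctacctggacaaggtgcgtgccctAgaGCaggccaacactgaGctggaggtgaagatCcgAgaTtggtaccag

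That stretch ends 1131 bases before the 3′ end of the Krt14 transcript and 1225 before that of Krt15. Reads of a 3′ assay fall mostly near the end of a transcript. In the last 500 bases the longest run shared by Krt14 and Krt15 was 17 bases, and Krt5 shared runs of 9 with both. Krt14 shared longer end runs with other type I genes, 55 bases with Krt16 and 71 with Krt17. The run shared with Krt17 is shown because Krt17 is among the keratins that differ between the classes below. It is coding sequence of exon 6 in both genes, at chr11:100204114-100204184 in Krt14 and chr11:100257439-100257509 in Krt17, and begins 390 bases before the end of the Krt14 transcript.

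Krt14 and Krt17: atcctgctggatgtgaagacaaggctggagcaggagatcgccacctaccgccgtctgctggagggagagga

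A read lying wholly inside that run could come from either gene. How such reads were counted is not given in the sources used here. Their effect on the counts of Krt14 and Krt17 was not tested.

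Across the bins of Krt4 and Krt13, the 3 genes fell to different depths and at different points. Krt14, the most abundant, lay at 87.0 and 88.3 UMIs per 10,000 in the low bin, 24.4 and 24.9 in the middle bin and 4.97 and 5.24 in the high bin. Krt5 lay at 32.7 and 30.2, then 23.3 and 22.3, then 4.21 and 4.05. Krt15 lay at 21.1 and 23.4, then 6.74 and 7.84, then 7.23 and 9.47. For each gene the step from the low to the high bin was wider than the gap between the libraries, and no pooled low-bin level overlapped a pooled high-bin level. Single cells of these bins did overlap in Krt15, as given below. Counts in such a 3′ assay carry no term for gene length.

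From the low to the middle bin, Krt14 fell by 1.83 and 1.83 on the log2 scale and Krt15 by 1.65 and 1.58, while Krt5 differed by -0.49 and -0.44. A difference was called where each library showed at least 1.5-fold (log2 0.58) with 1 sign, for genes that averaged 20 CPM or more (0.2 UMIs per 10,000). By that rule Krt14 and Krt15 were lower and Krt5 was not called, against a background of 7.09% of 5376 genes called lower (4.28% higher). Exact 95% intervals, which cover counting error only, ran from -0.51 to -0.47 for Krt5 in library 1 and from -0.45 to -0.42 in library 2. The Krt5 difference was thus outside counting error but smaller than the rule. It depended on the bins: with cells binned on Krt13 alone it averaged -1.28 and on Krt4 alone -1.58, both called.

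From the low to the high bin all 3 genes fell, against a background of 29.4% of 5087 genes called lower (9.81% higher). Krt14 fell by 4.13 and 4.08, a 17.5-fold and 16.9-fold lower level. Krt5 fell by 2.96 and 2.90, or 7.78-fold and 7.46-fold. Krt15 fell by 1.55 and 1.31, or 2.93-fold and 2.48-fold. The median over all tested genes was -0.26, and with median-of-ratios scaling the same falls averaged 3.58, 2.41 and 0.91 in place of 4.10, 2.93 and 1.43, so the order of the genes was the same. That scaling also turned the split of all called genes from 499 higher and 1495 lower to 1304 higher and 638 lower. Krt5 and Krt14 levels in the high bin lay below the pooled levels of immune cells and nearer their medians, both given below. Neither was subtracted from the falls given here.

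From the middle to the high bin Krt5 fell by 2.47 and 2.46 and Krt14 by 2.29 and 2.25 (background 15.8% of 4848 genes lower, 5.03% higher). Krt15 did not fall: it differed by 0.10 and 0.27, below the rule. Krt15 thus fell between the low and the middle bin and not after, whereas Krt5 fell by more after the middle bin than before it.

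**Figure D1:**
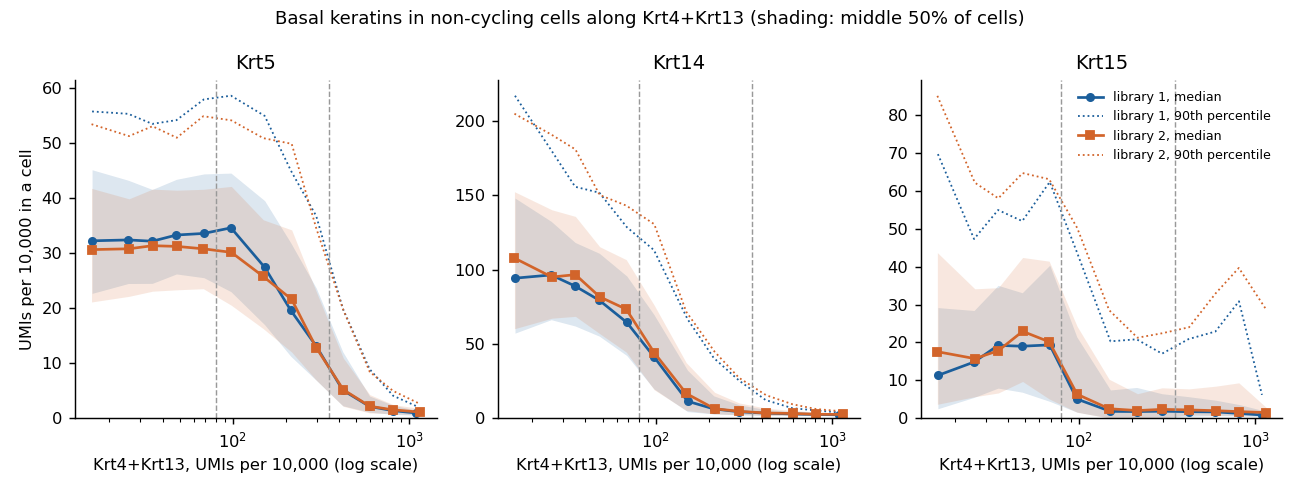
Level of Krt5, Krt14 and Krt15 in single resting cells (UMIs per 10,000, linear axis from 0) along the Krt4 and Krt13 sum (log axis), with the median of each step as points, the middle 50% of cells as shading and the 90th percentile as dotted lines, by library; dashed lines are the limits 80 and 350. The Krt14 median falls within the low bin already and drops further past 80, the Krt15 median drops past 80, the Krt5 median drops later, and the 90th percentile of Krt15 rises again above 350 before the last step.

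Finer steps of the Krt4 and Krt13 sum showed the order in resting cells. At sums under 20 Krt14 was 124 and 121, Krt5 34.9 and 32.9 and Krt15 24.5 and 31.8. Between 60 and 80, just under the first limit, Krt14 was already lower, at 76.0 and 86.5, Krt5 35.9 and 34.6 and Krt15 25.2 and 27.3. Between 80 and 120 Krt14 was 59.5 and 60.6 and Krt15 14.3 and 15.7, while Krt5 was still 35.7 and 32.8. Between 120 and 180 Krt14 was at 32.0 and 34.3, and Krt5 at 29.6 and 27.6, so the levels were close. Krt5 was then 23.1 and 25.2 at 180 to 250, 16.4 and 17.2 at 250 to 350 and 8.83 and 8.04 at 350 to 500. By 700 to 1000 Krt5 was at 1.86 and 2.18 and Krt14 at 3.05 and 3.56. Krt15 was 5.32 to 7.46 over both libraries between 180 and 350, then 8.16 and 11.2 at 700 to 1000, and 4.59 and 7.76 at 1000 and above, where only 77 and 160 cells lay.

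Single resting cells were spread widely around these means. In the low bin the median Krt14 level was 84.8 and 88.7, with the middle 50% of cells between 56.8 and 118 in library 1 and between 59.3 and 126 in library 2. Krt5 was narrower, with medians of 32.8 and 31.1 and quartiles of 25.2 to 43.3 and 22.9 to 41.1. Krt15 was widest for its level, with medians of 17.2 and 19.4 and quartiles of 5.88 to 33.8 and 6.72 to 39.8. High-bin cells held a median Krt15 level of 1.43 and 1.90, below the pooled levels of 7.20 and 9.43 in the same cells. The 95th percentile there was 38.8 and 48.9, and the 172 and 331 cells at 20 or more per 10,000 and with Dcn under 15 held 11770 of 16539 and 19572 of 25799 Krt15 UMIs of the resting high bin.

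**Figure D2:**
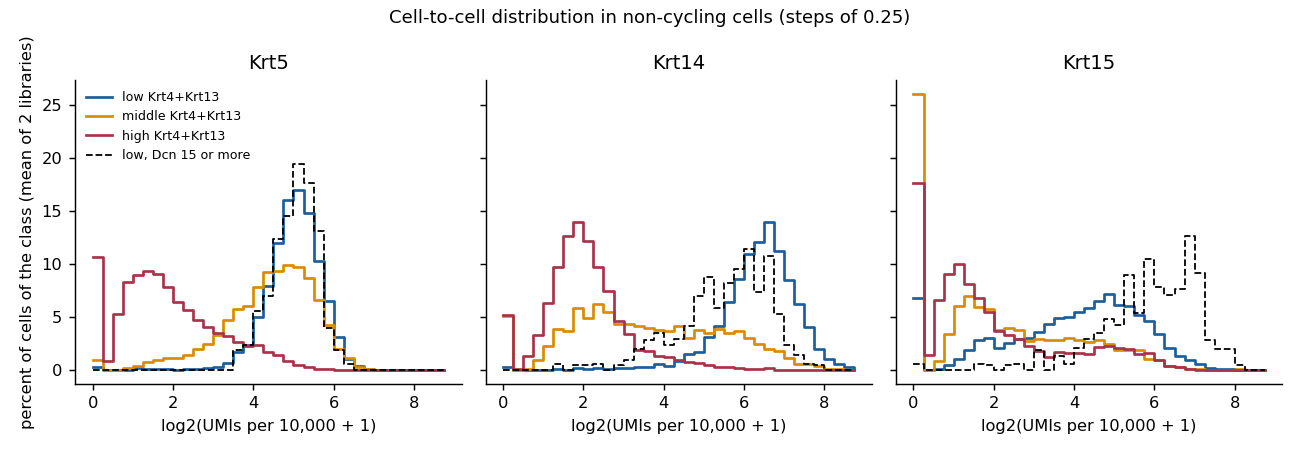
Distribution over single resting cells of the level of each gene, as log2 of UMIs per 10,000 plus 1 in steps of 0.25, in percent of the cells of a class (mean of both libraries), for the low, middle and high bins and for low-bin cells with Dcn of 15 or more (dashed). Krt5 of the Dcn cells lies on that of the low bin, whereas their Krt14 lies lower and their Krt15 higher, and Krt15 in the high bin has a tail at high levels.

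Cells just inside and just outside a limit differed by less than the bins did. At 72 to 80 against 80 to 88 UMIs of Krt4 and Krt13, all cells included, Krt14 was 56.4 and 62.0 against 51.9 and 50.1. At 315 to 350 against 350 to 385, Krt5 was 14.2 and 13.3 against 12.5 and 10.1. Within 10% of the first limit lay 269 and 327 cells, and within 10% of the second 279 and 334.

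The balance between the type II gene and its type I partners changed along the same axis. The low bin held 0.376 and 0.342 Krt5 UMIs for each Krt14 UMI, in the middle bin 0.955 and 0.897, and in the high bin 0.846 and 0.773. Krt5 exceeded Krt14 in 7.39% and 5.52% of low-bin cells with at least 5 UMIs of the pair, in 64.6% and 60.3% of such middle-bin cells and in 37.3% and 34.7% of high-bin ones. Krt5 thus exceeded Krt14 in most such middle-bin cells, although the summed Krt14 UMIs of the bin were still above those of Krt5. For each Krt14 UMI the low bin held 0.243 and 0.265 Krt15 UMIs, the middle bin 0.276 and 0.315, and the high bin 1.45 and 1.81. The ratio of Krt15 to Krt5 fell from 0.646 and 0.777 in the low bin to 0.289 and 0.351 in the middle bin and was 1.72 and 2.34 in the high bin. High-bin levels of Krt5 and Krt14 lay below the pooled levels of immune cells and nearer their medians, both given below and neither subtracted. How far stray RNA set the high-bin ratios and shares was not tested.

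Detection of all 3 genes in 1 cell was counted after every cell had been thinned to 3000 UMIs. All 3 were found in 85.4% and 87.3% of low-bin cells, 44.2% and 47.8% of middle-bin cells and 17.3% and 19.2% of high-bin cells. Without thinning the shares were 93.1% and 93.5%, 72.1% and 71.2%, and 72.6% and 70.3%, so the middle and high bins differed only after depth was made equal. Immune cells, which should lack the 3 genes, were used as a measure of stray RNA. They were 23 and 36 cells, chosen for antigen-presentation or lymphoid and myeloid transcripts, with median depths of 6887 and 7704 UMIs.

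In immune cells the thinned share with all 3 genes was 26.1% and 30.6%, above the high bin. The share with any Krt14 was 69.6% and 72.2% in immune cells against 60.5% and 62.7% in the high bin, and that with any Krt15 43.5% and 50% against 47.4% and 50.6%. The presence of a Krt14 or Krt15 UMI in a high-bin cell could therefore not be told from that in immune cells, at this number of immune cells. Krt5 was found in 55.3% and 54.9% of high-bin cells and in 56.5% and 50% of immune cells. The median immune cell held 2.47 and 2.77 UMIs per 10,000 of Krt5, 4.23 and 3.98 of Krt14 and 1.36 and 1.74 of Krt15. Pooled over the immune cells, as the bin levels were, these were higher: 9.82, 15.4 and 5.72 as means of the libraries. The immune cells also held all 8 genes of the keratinocyte list, at 47.5 and 45.3 UMIs per 10,000. The high bin held that list at 95.7 and 99.7. Whether the keratin UMIs of the immune cells were stray RNA only, or came in part from doublets with keratinocytes, was not tested. Any Krt5, or any Krt14, was found in at least 99.3% of thinned low-bin cells and Krt15 in 85.7% and 87.7%.

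At a level of 20 UMIs per 10,000, above the median immune cell, the combinations separated the bins. Of low-bin cells 35.4% and 35.6% reached 20 for all 3 genes, 44.6% and 39.8% for Krt5 and Krt14 without Krt15, and 10.7% and 12.9% for Krt14 alone. In the middle bin 25.8% and 21.8% reached it for Krt5 alone, 20.2% and 18.3% for Krt5 and Krt14, and 35.6% and 37.1% for none. Of high-bin cells 82.0% and 77.6% reached it for none, and the next group was Krt15 alone, 11.2% and 15.5% (163 and 318 cells). All 3 together were found in 0 of 1454 cells of library 1, which allows a share of up to 0.253%, and in 2 of 2056 of library 2. Some immune cells also reached 20: 4 of 23 and 3 of 36 for Krt5, 4 and 7 for Krt14, and 1 and 4 for Krt15. Krt15 alone at that level was found in none of the 23 and in 2.78% of the 36.

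**Figure D3:**
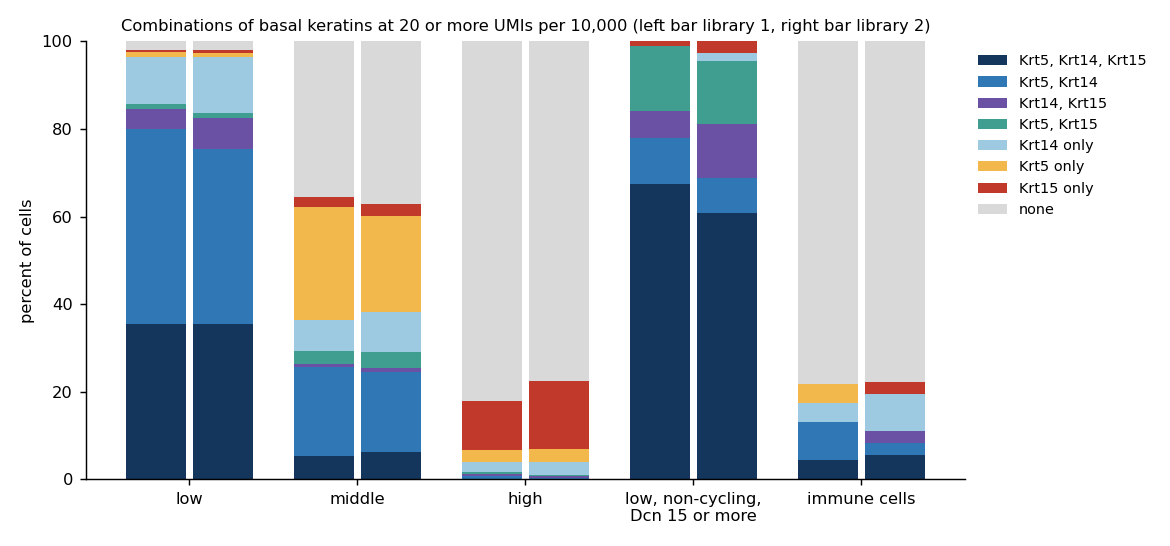
Share of cells (percent, stacked to 100) in each combination of Krt5, Krt14 and Krt15 at 20 or more UMIs per 10,000, with the left bar for library 1 and the right bar for library 2, in the low, middle and high bins, in resting low-bin cells with Dcn of 15 or more, and in immune cells. Low-bin cells mostly carry Krt5 with Krt14, with or without Krt15, middle-bin cells often carry Krt5 alone, and Krt15 alone reaches 11.2% and 15.5% in the high bin.

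The spread between cells differed by gene. In resting cells thinned to 3000 UMIs the variance over the mean, which is 1 for counting error alone, was 2.51 and 2.33 for Krt5 in resting low-bin cells, 10.4 and 11.6 for Krt14 and 8.63 and 9.31 for Krt15. As a coefficient of variation beyond counting error, these low-bin values were 0.377 and 0.365 for Krt5, 0.574 and 0.594 for Krt14 and 1.03 and 1.0 for Krt15. Krt5 was thus the most even of the 3 between resting low-bin cells and Krt15 the least. The same coefficients in resting high-bin cells were 1.34 and 1.30, 1.65 and 1.54, and 1.99 and 1.83.

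Pairs of genes moved together to different degrees. Over resting low-bin cells Spearman's rho of Krt5 and Krt14 was 0.48 and 0.49, over 2393 and 2614 cells of 1 library each. For Krt15 and Krt14 it was -0.25 and -0.22 in the same cells, against 0.16 and 0.17 in the middle bin and 0.09 and 0.08 in the high bin. For Krt15 and Krt5 it was 0.11 and 0.12 in the low bin. The cells share a library and the levels share each cell's total, so these values are descriptions.

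**Figure D4:**
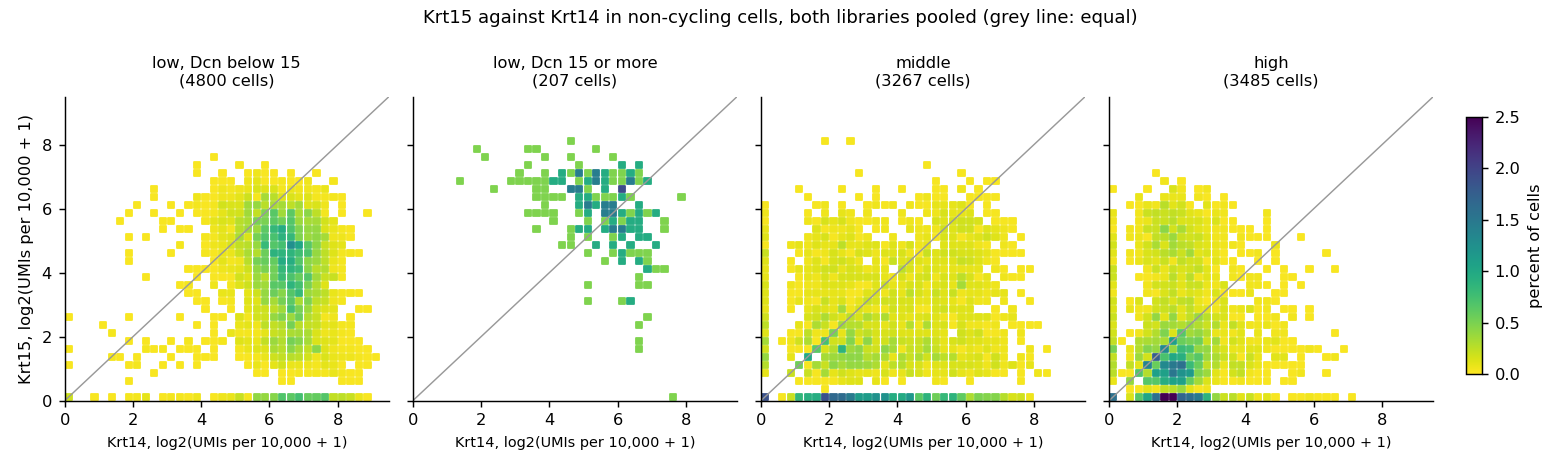
Krt15 level (vertical) against Krt14 level (horizontal) in single resting cells, as log2 of UMIs per 10,000 plus 1 with both libraries pooled, for low-bin cells with Dcn under 15, low-bin cells with Dcn of 15 or more, and the middle and high bins; colour is the percent of cells in each square and the grey line marks equal levels. Most low-bin cells lie below the line, on the Krt14 side, most Dcn cells lie above it, and the high bin has a column of cells with high Krt15 at low Krt14.

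Cycling cells had less Krt14 in the low bin and less Krt15 in the middle bin than resting cells, and the remaining differences of these bins stayed below the rule. Cycling cells were 32.0% and 36.2% of the low bin, 24.0% and 25.5% of the middle bin and 0.619% and 0.778% of the high bin. In the low bin Krt14 was 65.3 and 67.9 UMIs per 10,000 in cycling cells against 101 and 104 in resting ones, a fall of 0.63 and 0.62 (log2), which was called (background 3.36% of 5499 genes lower, 8.84% higher). The difference lay close to the rule, and with median-of-ratios scaling (-0.59) or a cycling limit of 5 (-0.59) or 20 (-0.57) it was not called. Krt15 differed by -0.49 and -0.57 and Krt5 by -0.35 and -0.37, below the rule. Over the keratin family 7 of 13 tested, Krt14 included, were lower in low-bin cycling cells and none higher, among them Krt17 (130 against 431 CPM) and the glandular keratin Krt7 (5.49 against 35.8 CPM). For Krt17 and Krt7 the glandular-like and Dcn cells, described below, were not left out, and their part in the difference was not tested.

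In the middle bin Krt15 was 4.35 and 4.86 in cycling cells against 7.82 and 9.33 in resting ones, a fall of 0.85 and 0.94 that was called (background 2.26% of 5231 genes lower, 9.08% higher). Krt14 was 18.3 and 18.2 against 27.2 and 28.2, a difference of -0.57 and -0.63, called in library 2 only and so not by the rule. Krt5 differed by -0.34 and -0.49. Of 14 keratins tested 7, Krt15 included, were lower and none higher. The high bin had only 9 and 16 cycling cells, and there Krt14 was higher, 21.6 and 16.5 against 4.86 and 5.10 (log2 2.15 and 1.69), as was Krt5, 8.78 and 7.49 against 4.18 and 4.0 (log2 1.07 and 0.90). The background was 10.8% of 4773 genes called higher and 2.51% lower. The Krt5 rise was not called at 0.63 with the 5% of cells with most UMIs left out, nor at 0.62 in thinned cells. At a cycling limit of 20 neither Krt5 (0.63) nor Krt14 (1.05) was called. Those few cells also held less of the differentiating markers, 419 and 580 per 10,000 for the list sum against 740 and 764 in the whole high bin. Their median depth was 15110 and 20151 UMIs, against 14725.5 and 11984.5 in the whole high bin. No doublets were removed, and the part of depth or doublets in these rises was not tested.

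Cells with Dcn of 15 or more had a reversed balance of the type I genes. Dcn encodes decorin, a matrix proteoglycan usually made by fibroblasts. They numbered 95 and 112 among resting low-bin cells. Krt15 was 78.7 and 82.0 UMIs per 10,000 in them against 21.7 and 24.9 in the other resting low-bin cells, a rise of 1.86 and 1.72 (log2; background 2.75% of 5355 genes higher). Krt14 was 58.1 and 59.0 against 103 and 106, a fall of 0.82 and 0.85 (background 2.8% lower). Krt5 was 35.5 and 32.5 against 35.7 and 33.5, a difference of -0.01 and -0.05, with intervals of -0.07 to 0.06 and -0.11 to 0.02.

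The type II gene was thus level while its type I partners exchanged places. The ratio of Krt15 to Krt14 was 1.35 and 1.39 against 0.211 and 0.235, and Krt15 exceeded Krt14 in 62.1% and 61.6% of the Dcn cells. The median Dcn cell held 61.6 and 71.1 of Krt15 and 53.5 and 46.0 of Krt14. All 3 genes reached 20 per 10,000 in 67.4% and 60.7% of them. Within these cells Spearman's rho of Krt15 and Krt14 was -0.46 and -0.47 over 95 and 112 cells.

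Markers of fibroblasts did not come with Dcn. Col1a1, Col3a1, Lum, Pdgfra and Pdgfrb were at 0 UMIs in the Dcn cells of both libraries, and the fibroblast list without Dcn summed to 0.0699 and 0.0338 per 10,000. The keratinocyte list was present in full, 8 of 8, at 129 and 125 per 10,000 against 181 and 183. The comparison cells held the immune cells of the low bin, with an immune list sum of 6.00 and 13.5 per 10,000 against 0.157 and 0.135, and Cd74 among the genes lower in Dcn cells. Dcn cells near the limit, at 10 to 15 against 15 to 20 per 10,000, had Krt15 at 40.1 and 41.8 against 49.0 and 56.5. With the limit lowered to 5 the Krt14 difference was -0.55 and no longer called.

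Other keratins also differed in Dcn cells, with 3 of 12 tested higher and 6 lower, where 2.75% of all 5355 genes were higher and 2.8% lower. Besides Krt15, Krt17 (1636 against 380 CPM, log2 2.02 and 2.19) and Krt24 (269 against 51.6 CPM, log2 2.44 and 2.31) were higher. Krt17 is known from hair follicle and injured epithelium. By summed counts, Krt16, Krt6a, Krt6b, Krt1 and Krt10, keratins of stressed or cornifying epithelium, were lower along with Krt14. Among low-bin cells with little Krt15 and Dcn under 15, few held high Krt16 or Krt10, as given below. Krt6a and Krt6b were more widespread there. The share of cells behind these falls was not counted for the Dcn comparison. Whether the small number of Dcn cells played a part was not tested. Among the regulators Klf4 (18.8 against 46.6 CPM) and Klf5 (223 against 382 CPM) were lower, 2 of 14 tested. Of 9 filament anchors tested only Itga6, the partner of β4-integrin, was lower (199 against 338 CPM). Both lists are short, beside the 2.8% of all genes that were lower. Leading genes by size were Pcdh20, Grp, Itm2a, Steap4, Col6a1, Egfl6, Serpine2, Rhoc and Nppc.

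Glandular-like cells, 57 and 46 cells with Krt7, Krt8 and Krt18, had the opposite balance. Krt14 was 109 and 126 per 10,000, Krt5 35.1 and 32.9, and Krt15 5.60 and 7.62. Their ratio of Krt15 to Krt14 was 0.0514 and 0.0602, below that of every bin.

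The resting low-bin cells with Dcn under 15 were ranked by Krt15 and divided into 3 groups of equal size, and the highest group was compared with the lowest. Since Krt15 chose the cells, these differences are descriptions. Of 5351 genes tested, 36 were higher (0.673%) and 123 lower (2.3%) where Krt15 was high. Higher genes were led by Dcn (102 against 30.1 CPM), Gpnmb (205 against 86.3), Nkx2-3, Adamts1, Igfbp3 (210 against 97.1), Wnt16 (82.1 against 41.8), Cck, Ndufa4l2, Tfap2b (108 against 58.0) and Hist1h1c. Dcn was thus raised together with Krt15 below the limit that defined the Dcn cells. Lower genes were led by BC037156, Sprr2f, H2-Aa, H2-Ab1, Cd74, Krt16, Ctss, S100a8, S100a9 and H2-Eb1. Of these Cd74, H2-Aa, H2-Ab1 and H2-Eb1 are antigen-presentation genes, which mark the immune cells. With immune and glandular-like cells left out, 33 genes were higher (0.62%) and 97 lower (1.82%) of 5324, and Krt16, S100a8, S100a9, Sprr1b and Krt6b were still among the lower genes.

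The same question was put to each bin with fixed levels, comparing Krt15 at 20 or more with Krt15 under 5 per 10,000 in resting cells with Dcn under 15, without immune and glandular-like cells. In the low bin, 994 and 1180 cells were compared with 485 and 494. Krt14 was 91.7 and 97.2 in the Krt15-rich cells against 128 and 130 (log2 -0.48 and -0.42), below the rule, and Krt5 differed by 0.15 and 0.11. Of 5318 genes 52 were higher (0.978%, Krt15 included) and 106 lower (1.99%). Higher genes were Dcn (102 against 25.8 CPM), Gpnmb (201 against 68.2), Adamts1, Nkx2-3, Il1r2, Tfap2b (110 against 51.5), Bdnf, Thy1, Wnt16 (77 against 36) and Csrp2. Lower genes were S100a8, S100a9, Krt16 (14.4 against 568 CPM), Krt1, Sprr1b, Krt6b, Chil4 (343 against 6025), Krt10 (63.9 against 656), Krt6a (143 against 1233) and Krt17 (73.4 against 838).

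Some of these differences came from few cells. Krt16 reached 5 UMIs per 10,000 in 4.74% and 4.05% of the Krt15-poor low-bin cells and in 0% and 0.254% of the Krt15-rich ones. Krt10 reached it in 1.03% and 2.63% of the poor cells, and S100a8 in 1.65% and 1.21%. Krt6a and Krt6b were more widespread and together reached it in 20.8% and 21.9% of poor and 6.84% and 6.78% of rich cells. Any of Krt1, Krt10, Krt16 and Chil4 reached it in 26.6% and 37.7% of poor and 23.0% and 32.7% of rich cells. Those shares were close, although the summed level of these genes was 88.6 and 63.5 per 10,000 in poor against 3.56 and 5.11 in rich cells. By summed counts, Krt17 thus lay with high Krt15 in the Dcn cells and with low Krt15 in the other resting low-bin cells compared. The share of cells behind the Krt17 difference was not counted.

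In the middle bin, 195 and 294 Krt15-rich cells had Krt14 at 35.9 and 37.3 against 25.9 and 25.5 in the poor ones (log2 0.47 and 0.55) and Krt5 at 0.29 and 0.43 on the log2 scale above them, both below the rule. Of 5075 genes 104 were higher (2.05%) and 75 lower (1.48%). Higher genes were led by Igfbp3 (129 against 13.3 CPM), Dcn, Gpnmb, Lamb3, Wnt6, Sparc, Antxr1, Igfbp7, Scmh1 and Wfdc2. Of 11 filament anchors 4 were higher, Itga6, Itgb4, Col17a1 and Dst, all of the hemidesmosome, and none lower. The rich cells also held less Krt13 (107 against 135 per 10,000, mean of the libraries) and Krt4 (68.7 against 75.6), so they lay nearer the low bin, where these 4 genes were higher. The part of that in the differences was not tested. Lower genes were led by Sprr1b, Krt6b, Sprr2a3, S100a8, Tmprss11d, Krt16, Sprr1a, Ly6g6c, Krt23 and Rbp2.

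In the high bin, 172 and 331 Krt15-rich cells were compared with 1098 and 1431 poor ones. Krt15, which chose the cells, was 41.3 and 44.1 per 10,000 in the rich ones. Krt14 there was 4.06 and 4.05 and Krt5 3.79 and 3.33, below the pooled levels of immune cells and nearer their medians. Krt14 and Krt5 of these Krt15-rich cells were thus far below their low-bin levels. Depth was alike, with medians of 15132 and 12515 UMIs in rich and 14997 and 12010 in poor cells. Of 4400 genes only 9 were higher (0.205%), Krt15 included, and 30 lower (0.682%).

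The 8 others that were higher were Ada, adenosine deaminase (2467 against 820 CPM, log2 1.61 and 1.57), Krt79 (41.4 against 16.8), Mt3 (1668 against 834), Car3, Csrp2 (237 against 124), Ankrd44, Wnt16 (32.8 against 18.7) and Prlr. None of the 16 regulators or 10 anchors tested was called in either direction. With 0.205% of all 4400 genes higher and 0.682% lower, that is near the background. Lower genes were led by Dapk2, Krt6b (81.8 against 389), Krt6a (329 against 1372), Glul, Sptssb, Crct1, Ly6g6c, Rbp2, Krt23 (198 against 444) and Lor. Krt6a and Krt6b together reached 5 per 10,000 in 16.3% and 17.2% of Krt15-rich and 42.8% and 40.7% of Krt15-poor high-bin cells, so that difference was spread over many cells.

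Gene lists of the separate bins overlapped in part. Counted over genes tested in both and without Krt15, 19 genes were higher in both the low and the middle bin, 51.4% of the 37 and 18.4% of the 103. Lower in both were 35, or 46.7% of 75 and 67.3% of 52. The cell-cycle gene Cdk1 was among them, although the cells were called resting. The part of the cell cycle in these differences was not tested. The middle and high bins shared 3 higher genes (Ankrd44, Mt3 and Wnt16), 7.5% of 40 and 50% of 6, and 16 lower genes, 23.2% of 69 and 66.7% of 24. The low and high bins shared the higher genes Csrp2 and Wnt16, 10.0% of 20 and 33.3% of 6, and 9 lower genes, 14.5% of 62 and 45.0% of 20. The latter were Calm4, Krt24, Krt6a, Krt6b, P3h4, Serpinb2, Spink5, Sprr2a3 and Tmem45a. Wnt16, a secreted Wnt ligand, was thus higher with Krt15 in all 3 bins, and Krt6a and Krt6b lower in all 3.

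**Figure D5:**
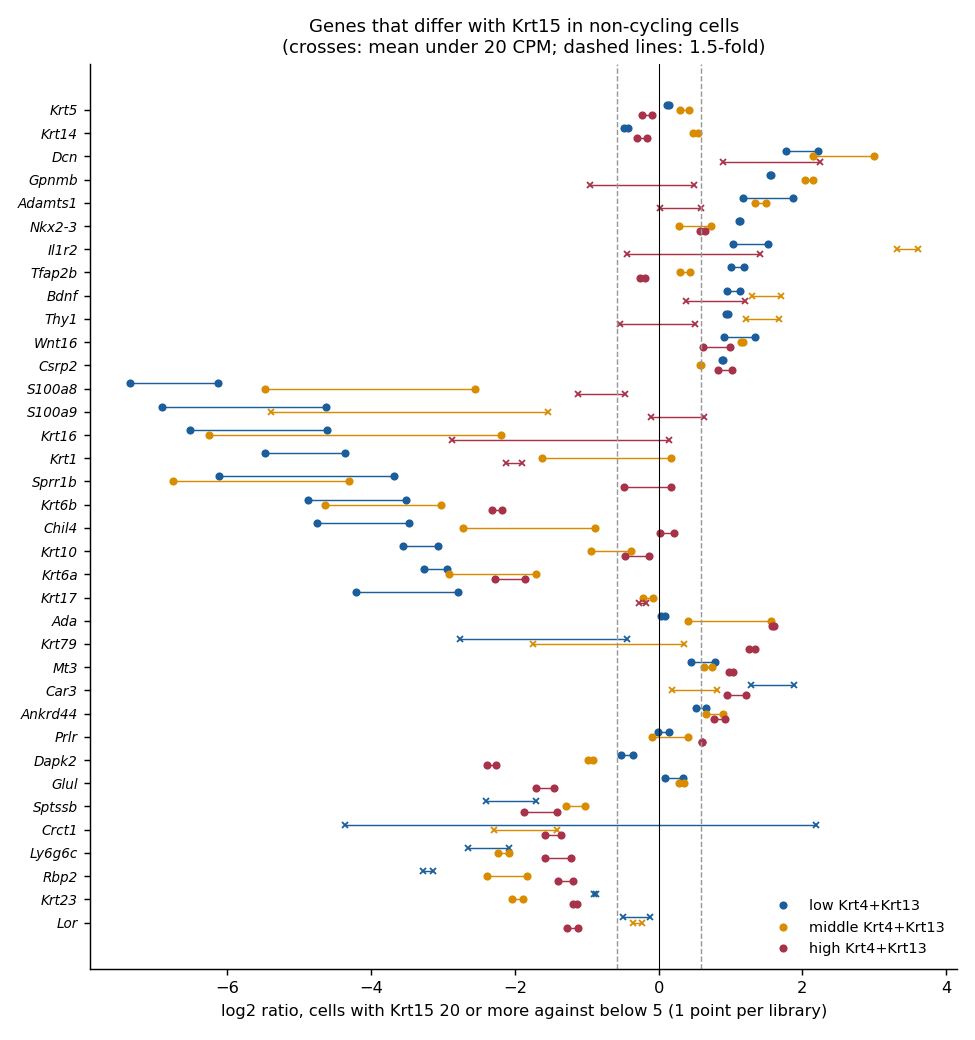
Log2 ratio of Krt15-rich cells (20 or more per 10,000) to Krt15-poor cells (under 5) for Krt5, Krt14 and the named genes of the low and high bins, with 1 point per library joined by a line and a colour per bin; crosses mark genes with a mean under 20 CPM and dashed lines mark 1.5-fold. Wnt16 lies beyond the upper dashed line and Krt6a and Krt6b beyond the lower one in every bin, whereas Ada does so in both libraries in the high bin only.

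The wider keratin family and the genes around the filaments were counted in the same contrasts. Of 51 keratins 14 reached 20 CPM in the comparison of middle with low bin, where 6 were higher and 3 lower (4.28% and 7.09% of all genes), with a median of 0.62 against -0.06 for all genes. Krt4 and Krt13, which set the bins, are among the higher ones. Krt23, Krt32, Krt6a (1215 against 365 CPM) and Krt6b (218 against 55.0) were the other higher ones, and Krt17 (105 against 306) fell with Krt14 and Krt15. In the high bin against the low bin 6 were higher and 7 lower of 14 (9.81% and 29.4% of all genes), with Krt17 falling by 4.72 and 4.17, beside 4.13 and 4.08 for Krt14.

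Of 11 linkers of keratin filaments to the membrane, 5 fell and 5 rose from the low to the middle bin, split by the kind of junction, where 7.09% of all genes fell and 4.28% rose. The hemidesmosome genes Itgb4 (log2 -1.37 and -1.29), Col17a1 (-1.36 and -1.25), Itga6, Dst and Plec fell, and the desmosome and cell envelope genes Ppl (1.22 and 1.33), Pkp1, Evpl, Jup and Dsp rose. The same 5 and 5 were called in the high bin against the low bin, with 29.4% of all genes lower and 9.81% higher, and Col17a1 fell by 3.78 and 3.58 and Itgb4 by 3.32 and 3.29. The falls of Itgb4 and Col17a1 in the middle bin lay between those of Krt5 and Krt14. CD104, the sorted protein, is the product of Itgb4.

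Of 18 transcription factors listed, 17 were tested between middle and low bins. Trp63, the p63 gene that marks basal keratinocytes, was the single one that fell (236 against 482 CPM, log2 -1.05 and -1.01). The 6 that rose were Zfp750 (log2 2.33 and 2.53), Grhl3 (1.88 and 2.18), Ovol1, Hes1, Cebpa and Klf4, of which several are known to drive epidermal differentiation. The background was 4.28% of genes higher and 7.09% lower. In the high bin against the low bin 7 rose and 4 fell, where 9.81% of all genes were higher and 29.4% lower, so the share that fell was near the background, with Trp63 lower by 1.94 and 1.90, less than Krt5.

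The genes most like each of the 3 were sought over the 6 classes of bin and division, by the mean over libraries of Pearson's r of log2 CPM with 5 added, among 2527 genes of at least 50 CPM. The classes share cells' origin and depth trend, and 6 points allow many high values. Krt14 was nearest to Serpinh1, Txnip, Itga6, Apoe and Igfbp2, with r rounding to 0.99 or 1.0. Genes near Krt5 were Rap1b, Sox15, Sat1 and Yy1, at 0.97 to 0.98. Krt15 had looser neighbours, Yipf3 (0.89), Wnt4 (0.88), App, Cpe and Defb1 (0.86 each). None of the 3 was among the 5 nearest of another. Krt14 stood at rank 146 for Krt5 with r of 0.90, and Krt15 at rank 1192 for Krt5 with r of 0.39 and at rank 537 for Krt14 with r of 0.72. The nearest rank among them was that of Krt14 for Krt15, at 55.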

How the data were processed

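Per the labels' protocols, 1 suspension was split into 2 libraries on the 10x Chromium platform. The deposited values are counts of UMIs per gene and barcode. Cell Ranger and mm10 appear in the submitters' processing notes. Its version, its annotation and how cells were called are not given in the sources used here. Cells needed 500 genes or more and no more than 10% mitochondrial UMIs, which left out 308 and 513 barcodes of 7215 and 9076, all for mitochondrial UMIs. The kept cells held 66458750 and 71569412 UMIs. No doublet caller was run and no doublets were removed.

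Counts of each class were summed per library and are given per 10,000 UMIs or as CPM. The libraries are technical replicates, so no significance test was run. A gene was called at 1.5-fold or more with 1 sign in each library, if it averaged 20 CPM or more, and a count of 0 was set to 3 (per library). Intervals at 95% are exact: binomial (Clopper-Pearson) for shares, conditional binomial for ratios. The thinned counts used a fixed seed of 11. Glandular-like cells had at least 10 UMIs per 10,000 of Krt7, Krt8 and Krt18. Immune cells had at least 100 of Cd74, H2-Aa and H2-Ab1, or at least 10 of Cd52, Nkg7, Tyrobp and Fcer1g. Named genes are the 3 members, the keratins tested, up to 6 genes of the regulator and anchor lists, the 5 genes most like each member, and the 10 highest and 10 lowest genes by the smaller library ratio in the contrasts on Krt15. The Krt15 contrasts at fixed levels, the leading genes of Dcn cells and the cells near limits were added after seeing the data. The members, classes and lists were chosen with earlier results of these data known. Positions and sequences are from GENCODE M21 and GRCm38. 1 of the genes most like Krt5 is not reported here. The scripts were tested on simulated counts. Tables were made with pandas 2.3.3, numpy 2.4.6 and scipy 1.17.1 in Python 3.11.15, and plots with matplotlib 3.10.9.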

Additional observations from a re-analysis of the deposited data

Results flagged for a closer look

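Differences between cycling and resting cells had opposite signs in different bins, although Krt14 was the single gene called in both directions, lower in the low bin and higher in the high bin. On the log2 scale, as means of both libraries, cycling against resting cells differed for Krt5 by -0.36 in the low bin and -0.42 in the middle bin but by 0.99 in the high bin. For Krt14 the values were -0.62, -0.60 and 1.92, and for Krt15 -0.53, -0.89 and 0.57. Every value had the same sign in both libraries. The difference between bins was not tested, and the high bin held only 9 and 16 cycling cells.

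Krt15-rich cells (20 or more per 10,000) set against Krt15-poor cells (under 5) also gave opposite signs between bins. Krt5 differed by 0.13 in the low bin, 0.36 in the middle bin and -0.16 in the high bin. Krt14 differed by -0.45, 0.51 and -0.24 in the same order. None of these reached 1.5-fold in both libraries, and the differences between bins were not tested.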

How the results depend on the processing

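Each result was recomputed under other settings, 1 at a time, which gave 384 values that kept their direction and side of the 1.5-fold rule or their size, 9 that were no longer called, 7 that were newly called, 34 that moved and none that reversed. Differences are means over libraries on the log2 scale. In the middle bin the Krt14 difference of cycling cells was called with mitochondrial UMIs at most 5% (-0.70), with median-of-ratios scaling (-0.63) and with a cycling limit of 20 (-0.65). It was not called in the low bin with that scaling (-0.59) or with cycling limits of 5 (-0.59) and 20 (-0.57). Krt5 was no longer called in the high bin without the 5% of cells with most UMIs (0.63), in cells thinned to 3000 UMIs (0.62) or at a cycling limit of 20 (0.63), where Krt14 (1.05) was also not called. The Krt15 to Krt5 ratio of middle against low bin was not called with bins at 40 and 500 (-0.50). Krt5 in middle against low bin was called with the unchanged limits of 80 and 350 put on Krt13 alone (-1.28) or Krt4 alone (-1.58). Krt14 in Dcn cells was not called at a Dcn limit of 5 (-0.55). For each of these the cause was not tested.

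Leaving out a library in turn gave Krt14 in cycling middle-bin cells at -0.57 to -0.63 and Krt15 in cycling high-bin cells at 0.37 to 0.78. Calls over all genes were 1155 to 2104 for cycling in the high bin (634 with both), 709 to 765 for Dcn cells (297), and 233 to 254 for the groups ranked by Krt15 (159), since 1 library then sufficed for a call. With a filter of 5 CPM the calls over all genes were 1289 (middle against low bin), 4137 (high against low), 2229 (high against middle), 1272, 1123 and 1413 (cycling in the low, middle and high bin) and 869 (Dcn cells). Without a filter they were 3112, 7411, 4361, 2617, 2017, 1637 and 1419 in the same order, as more genes of few counts were tested. With median-of-ratios scaling the split of called genes in middle against low bin turned from 230 higher and 381 lower to 349 and 244, in high against middle bin from 244 and 766 to 589 and 292, and for cycling high-bin cells from 514 and 120 to 341 and 264.

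Detection of all 3 genes at 2 UMIs or more was 74.7%, 23.7% and 4.04% in the low, middle and high bin, and at 20 per 10,000 it was 35.5%, 5.79% and 0.0486%. The variance over the mean in resting cells thinned to 5000 UMIs, which leaves out shallower cells (744 and 1380 in the low bin), was 3.44, 20.5 and 15.4 for Krt5, Krt14 and Krt15 in the low bin, 5.96, 29.2 and 15.2 in the middle bin and 5.02, 6.87 and 16.0 in the high bin, and it rises with depth by construction. No paired analysis was possible because both libraries belong to 1 group. The single suspension limits all differences to these cells.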
